A study of Mus musculus with 6 samples.

Results

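Expression of 9 complement genes was examined in mouse hematopoietic cells transformed by MLL-AF9, the product of a leukemia-associated chromosome translocation. The genes were picked by symbol from the 24062 genes of the count table: the membrane regulators Cd55, Cd59a, Cr1l and Cd46, and the components, binding protein and fluid-phase regulators C3, Cfp, C1qbp, Serping1 and Clu. The set was drawn up because Cd55 was almost lost in the libraries labelled KO, so the contrast between the groups had entered the choice. Differences for these 9 genes are therefore given as descriptions, with standard errors and without p-values. All 9 symbols were in the table, 8 had reads and the same 8 passed the filter on low counts.

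The starting cells were lineage-negative hematopoietic cells, transduced with a retrovirus carrying MLL-AF9. The group labelled WT had the genotype A20 +/+ and the group labelled KO the genotype A20 f/f, and both carried Rosa Cre-ER, a Cre recombinase activated by tamoxifen. Both groups received 1 µM 4-hydroxytamoxifen for 48 h and were grown with IL-3, IL-6 and SCF. Each group had 3 libraries, with 16113320 to 25415274 counted reads. The labels do not say whether replicates came from separate cultures, transductions or mice, so the spread between libraries may be technical and p-values measure only that spread. Levels are CPM, reads relative to the library's total after TMM scaling, and means are given ± SD over 3 libraries. A gene is called where edgeR's quasi-likelihood test over 12126 tested genes gave a Benjamini-Hochberg adjusted p under 0.05, which held for 27.3% of them.

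Some facts of the whole data set bear on every value below. Tnfaip3, which encodes A20, was higher in the libraries labelled KO (84.4 ± 13.8 against 8.10 ± 0.65 CPM, n = 3). A count per gene does not show which exons the reads came from, so it does not check the deletion, and every direction below refers to the labels. Xist was at 564 to 2109 CPM under the WT label and 0 to 4.77 CPM under the KO label, while the Y-linked gene Ddx3y was at 0 to 0.80 and 78.5 to 89.2 CPM, so the genotype labels and these sex-linked differences cannot be told apart. In both groups replicate 1 differed most from the other replicates. Chi-square per degree of freedom between libraries of a group was 79.7 to 231 for pairs with replicate 1. For replicates 2 and 3 it was 25.2 in the WT-labelled and 2.37 in the KO-labelled group. Standard errors and calls from replicates 2 and 3 alone rest on this narrow spread. They are not directly comparable with those over all libraries. Of the hematopoietic markers checked, all 6 were expressed, with a summed level of 2152 to 2489 CPM under the WT label and 2344 to 2563 CPM under the KO label, but 3 of them were called lower, Kit (353 to 102 CPM), Spn (580 to 237 CPM) and Myb (524 to 318 CPM), and Cd33 was at 362 and 1016 CPM and not called. In contrast 6 of 10 lymphoid markers had no reads in any library. Cd4, the only one tested, was called higher, with 2 reads under the WT label and 129 under the KO label, 103 of them in replicate 1. Only its KO-labelled libraries carried Cd4 past the filter on low counts, which nearly fixes the direction of its call. Cd79a (0 and 7 reads) and Cd3d (0 and 5) were also higher, and Klrb1c (41 and 1) was lower. Summed levels were 21.1 to 36.4 and 11.6 to 13.6 CPM for mast cell and basophil markers, and 259 to 331 and 64.3 to 107 CPM for stromal and endothelial markers, mostly Pecam1. Of this last list Pecam1 was called lower and Pdgfrb higher. Pdgfrb had 25 reads under the WT label and 215 under the KO label, and passed the filter on low counts only through the latter.

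Complement is a cascade of plasma proteins that tags and lyses cells. Its classical, lectin and alternative routes converge on the cleavage of C3, whose larger fragment binds covalently to nearby surfaces and builds further convertases, and the terminal components then assemble a pore in the membrane. Host cells protect themselves with membrane regulators: CD55 speeds the decay of convertases, CD46 and the rodent protein Crry (encoded by Cr1l) serve as cofactors for the cleavage of C3b, and CD59 blocks the pore. Myeloid cells also make complement components themselves, among them C3 and properdin.

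The promoters of Cd55 and of its neighbouring copy Cd55b are shown because both genes were almost or wholly without reads in the KO-labelled libraries, and that of C3 because it was the most abundant of these genes there. The sequences are the 250 bases before the annotated start, from RefSeq on GRCm38.p6, the assembly of mm10, on the minus strand in each case. They lie at chr1:130462745-130462994 for Cd55, chr1:130423044-130423293 for Cd55b and chr17:57228137-57228386 for C3. Capitals mark GGGCGG on either strand, the GC box, in Cd55 and Cd55b, and TTNNGNAA on either strand, the core of C/EBP sites, in C3.
Cd55: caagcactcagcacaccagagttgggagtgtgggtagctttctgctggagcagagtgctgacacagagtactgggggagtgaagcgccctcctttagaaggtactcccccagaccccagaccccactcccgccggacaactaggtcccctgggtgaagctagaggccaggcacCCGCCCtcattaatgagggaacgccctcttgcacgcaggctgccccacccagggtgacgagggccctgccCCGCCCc
Cd55b: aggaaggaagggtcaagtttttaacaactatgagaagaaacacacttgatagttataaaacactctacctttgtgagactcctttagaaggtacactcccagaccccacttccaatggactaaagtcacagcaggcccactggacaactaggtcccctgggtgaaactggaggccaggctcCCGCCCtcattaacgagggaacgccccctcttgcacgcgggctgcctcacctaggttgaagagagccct
C3: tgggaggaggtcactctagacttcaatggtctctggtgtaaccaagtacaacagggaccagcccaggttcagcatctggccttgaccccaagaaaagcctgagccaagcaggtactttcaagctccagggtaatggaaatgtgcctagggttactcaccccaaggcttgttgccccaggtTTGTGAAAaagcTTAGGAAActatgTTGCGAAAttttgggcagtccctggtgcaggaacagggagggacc

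The Cd55 and Cd55b promoters had 177 identical bases of 208 aligned (85.1%). The Cd55 window held the GC box at 2 positions and the Cd55b window at 1, and 32.7% of 32851 promoter windows of the same length held at least 1. The C3 window held 3 matches of TTNNGNAA, which occurred at least once in 36.8% of windows. A NF-κB consensus was in 3.90% of all windows and in neither Cd55, Cd55b nor C3. RefSeq promoters were matched for 7 of the 9 genes, all but Serping1 and Clu. Such matches describe letters only.

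Cd55, which encodes decay-accelerating factor, went from one of the more abundant of these transcripts to almost none. It lies on chromosome 1 at 130439027 to 130462744 of mm10. It had 234, 299 and 346 CPM under the WT label and 0, 0.65 and 0.54 CPM under the KO label. Every KO-labelled library was below 1 CPM, and replicate 1 had no read at all. The 3 WT-labelled libraries held 17780 reads and the 3 KO-labelled libraries 24. The ratio of mean levels was 741, and the fitted log2 fold change was -9.54 (SE 0.67). Within replicate 1 alone the WT-labelled library was at least 1728-fold higher, taking a floor of 3 counts for the KO-labelled library, and replicates 2 and 3 alone gave -9.07 (SE 0.16). The fitted value was -8.91 when KO-labelled replicate 1 was left out and -10.22 when KO-labelled replicate 2 was. In bulk RNA fewer cells that express a gene and less RNA per cell cannot be told apart. Of the 31-base words of Cd55 transcripts 11.2% also occur in Cd55b, and reads from these stretches may not be assignable to a single copy. An antisense gene, Gm16083, shares 102 exonic bases with Cd55, and the strand setting of the counting is not given in the sources used here.

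Cd59a, the gene of the GPI-anchored inhibitor of the membrane attack pore, was expressed at a low level. It had 2.63, 3.62 and 3.57 CPM under the WT label and 11.1, 4.16 and 5.19 CPM under the KO label. The groups did not overlap, but KO-labelled replicate 1 stood well above the others. The log2 fold change was 1.06 (SE 0.42) over all libraries and 0.35 (SE 0.24) in replicates 2 and 3, and it was not called in either. Its copy Cd59b, next to it on chromosome 2, had 1 read in the WT-labelled and 29 in the KO-labelled libraries. Its mean CPM was 32.2 times as high under the KO label (95% counting interval 5.35 to 1317), and it failed the filter on low counts.

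Cr1l, which encodes the rodent regulator Crry, had levels that overlapped between the groups. It had 88.1, 75.8 and 68.4 CPM under the WT label and 73.0, 64.5 and 64.5 CPM under the KO label. The log2 fold change was -0.20 (SE 0.14), and the difference of the means was about as large as the spread between libraries. Cd46, which in mice is mainly known from the testis, was close to the limit of detection, with 84 reads in the WT-labelled and 17 in the KO-labelled libraries. Its levels of 0.17, 1.44 and 2.73 CPM under the WT label and 0.14, 0.26 and 0.48 CPM under the KO label overlapped. Its log2 fold change of -2.32 (SE 0.98) was not called. Without WT-labelled replicate 1, the lowest of that group, it was -2.87 and called, as it was in replicates 2 and 3 alone (-2.55, SE 0.57). It was -1.44 without WT-labelled replicate 3, the highest of that group, and -1.62 with limma-voom, and not called in either. The long noncoding gene A330023F24Rik shares 1079 exonic bases with Cd46 on the opposite strand, so its reads and those of Cd46 may not be separable. Of the 4 membrane regulators, Cr1l alone exceeded 11.1 CPM in any KO-labelled library.

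**Figure D1:**
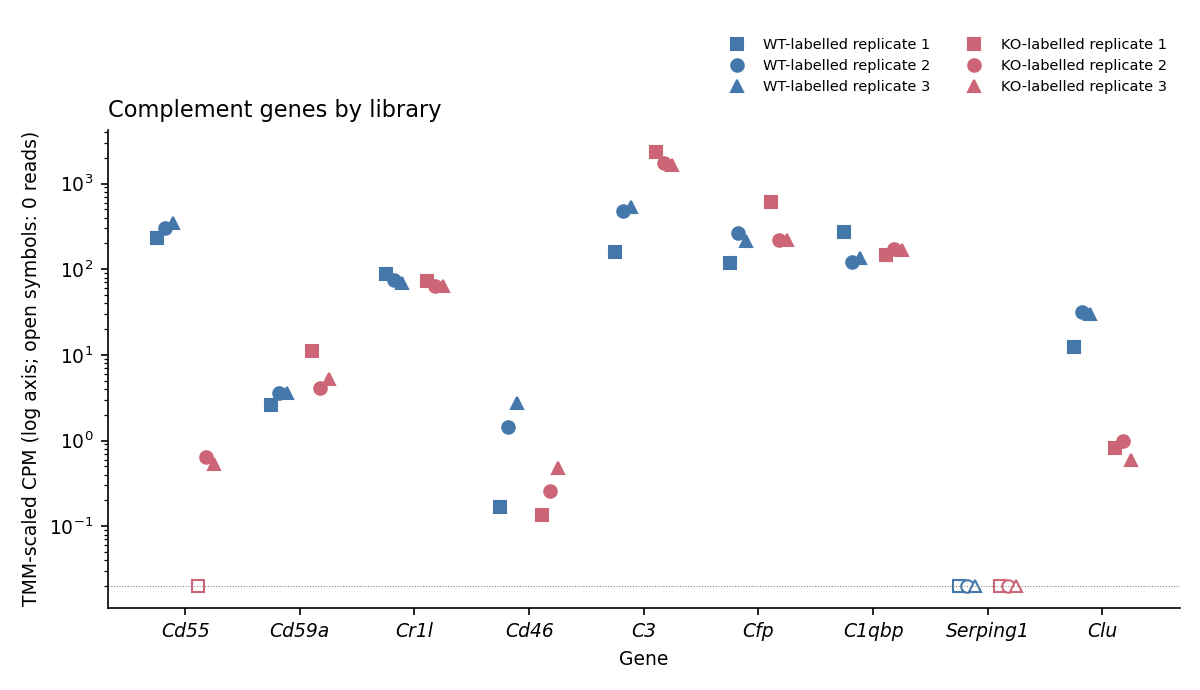
TMM-scaled CPM (log axis) of the 9 complement genes in each library, blue for WT-labelled and red for KO-labelled, with a symbol per replicate number; open symbols on the dotted line are libraries with 0 reads. Cd55 was at 234 to 346 CPM under the WT label and at 0 to 0.65 CPM under the KO label, and Serping1 had no read anywhere.

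C3, the central component of the cascade, was the most abundant of the 9 genes in the KO-labelled libraries. It lies on chromosome 17 at 57203970 to 57228136. It had 159, 473 and 536 CPM under the WT label and 2362, 1718 and 1659 CPM under the KO label. The groups were fully separated, with WT-labelled replicate 1 the lowest. The ratio of mean levels was 4.92 and the log2 fold change was 2.30 (SE 0.45). It was 1.73 (SE 0.10) in replicates 2 and 3 and 3.89 in the replicate 1 pair, where 0.5 CPM was added to both levels and no error can be given. The summed level of 9 macrophage markers also differed, at 50.2 to 282 CPM under the WT label and 363 to 961 CPM under the KO label. Of the 4 such markers tested, Csf1r was called higher and Mrc1 lower, and C1qa had no reads in the KO-labelled libraries. Mrc1 passed the filter on low counts only through its WT-labelled libraries, which nearly fixes its direction. The part of these markers in the C3 difference was not tested.

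Cfp encodes properdin, the plasma protein that stabilizes the alternative-pathway convertase and that is made by neutrophils and monocytes. It had 118, 262 and 215 CPM under the WT label and 604, 222 and 217 CPM under the KO label. The high mean of the KO-labelled group came from replicate 1, and replicates 2 and 3 of both groups lay between 215 and 262 CPM. The log2 fold change was 0.81 (SE 0.47) over all libraries, which was not called, -0.14 (SE 0.10) in replicates 2 and 3, and 2.35 in the replicate 1 pair. Cfp lies on chromosome X, so the difference in sex-linked transcripts given above stands beside its value, and its part was not tested. The summed level of 9 neutrophil markers was 46.2 to 472 CPM under the WT label and 12.4 to 33.3 CPM under the KO label, with Ngp called higher, Mmp8 lower and Retnlg without reads. Ngp, with 3 reads under the WT label, passed the filter on low counts only through its KO-labelled libraries, which nearly fixes its direction. Mmp8 carried the sum: the other 8 came to 5.57 to 8.18 CPM under the WT label and 8.48 to 16.6 CPM under the KO label, and the part of these markers in the Cfp values was not tested either.

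C1qbp encodes a mainly mitochondrial protein that also binds the globular heads of C1q. It had 273, 121 and 134 CPM under the WT label and 146, 172 and 166 CPM under the KO label. The groups overlapped, with WT-labelled replicate 1 the highest library of all. The log2 fold change of -0.13 (SE 0.31) changed sign without that library (0.34) and in replicates 2 and 3 (0.39, SE 0.08), where the gene was called higher. Serping1, the gene of the C1 inhibitor, had 0 reads in all 6 libraries, which allows a level of up to 0.13 to 0.18 CPM, the value of 3 counts in each library, and covers counting error only.

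Clu encodes clusterin, a secreted chaperone that binds the terminal complex in fluid and is abundant in platelets. It had 12.3, 31.8 and 29.8 CPM under the WT label and 0.81, 1.00 and 0.60 CPM under the KO label. All KO-labelled libraries were at 0.60 to 1.00 CPM, far below the lowest WT-labelled library. The ratio of means was 30.8 and the log2 fold change -4.92 (SE 0.45), with -5.23 (SE 0.21) in replicates 2 and 3. The replicate 1 pair gave -3.29 with 0.5 CPM added to both levels. That addition shrinks a difference at levels this low, so the value is not comparable with the fits. Most tested markers of erythroid and megakaryocyte cells were also lower. Of 5 tested 4 were called lower, among them Itga2b, the platelet integrin subunit, and Gp9, beside 13.7% of all tested genes. Gp9, Pf4 and Epor had 214, 75 and 56 reads under the WT label and 2, 6 and 16 under the KO label. Such genes pass the filter on low counts through the WT-labelled libraries, which nearly fixes their direction. The count is therefore not read against the 13.7%. The fifth tested marker, the erythroid factor gene Klf1, was at 0.58 ± 0.45 and 1.11 ± 0.19 CPM (n = 3) and was not called. The summed level of the 10 markers was 28.5 to 43.1 CPM under the WT label and 2.15 to 2.64 CPM under the KO label. The globin genes Hba-a1 and Hbb-bt had no reads, and the part of these markers in the Clu difference was not tested.

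**Figure D2:**
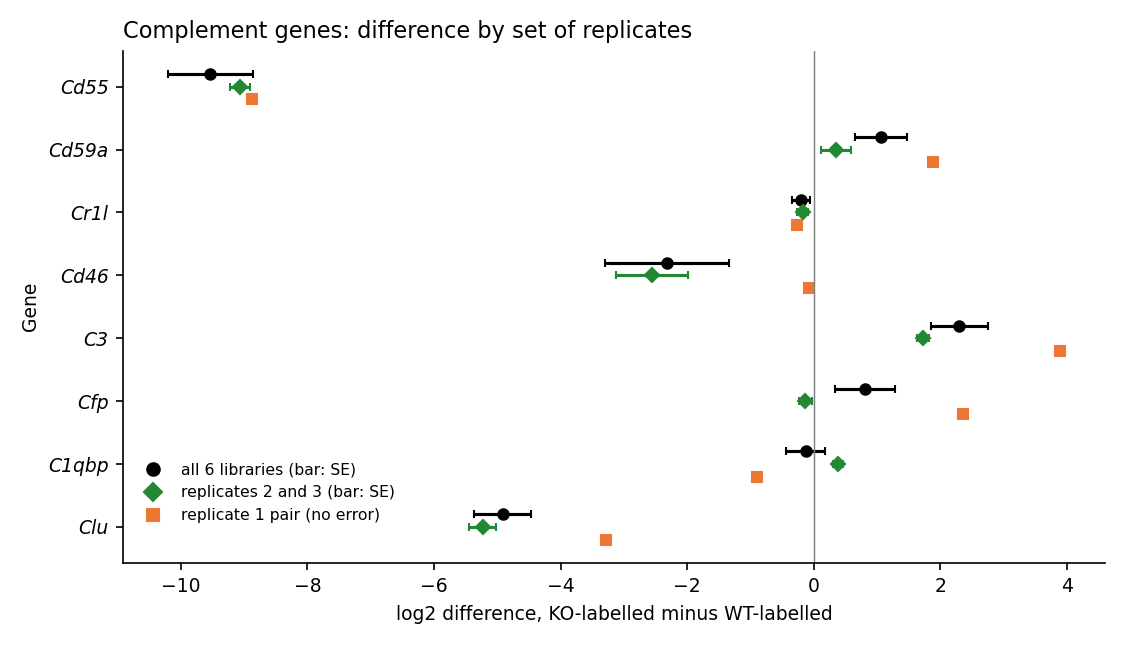
Log2 difference, KO-labelled minus WT-labelled, of the 8 complement genes with reads; circles are the fit over 6 libraries and diamonds that over replicates 2 and 3, both with bars of 1 SE, and squares are the replicate 1 pair with 0.5 CPM added to both levels and no error. Cd55, C3 and Clu lie on the same side of 0 in all 3, whereas Cfp is at 2.35 in the replicate 1 pair and -0.14 in replicates 2 and 3, and C1qbp changes sign.

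In the fit over all genes, 1 of the 8 tested genes of the set was called higher (C3), 2 were called lower (Cd55 and Clu) and 5 were not called. Of all tested genes 27.3% were called, 13.7% higher and 13.7% lower. Because Cd55 led to the choice of the set, nothing is read from this count. Groups did not overlap for 4 of the 8 (Cd55, Cd59a, C3 and Clu), against 47.6% of all tested genes. In replicates 2 and 3 alone 2 were called higher (C3 and C1qbp) and 3 lower (Cd55, Cd46 and Clu), where 52.9% of all genes were called, and the same numbers held without WT-labelled replicate 1, where 42.8% were. Leaving out any other single library gave 1 higher and 2 lower each time, while 19.8% (WT-labelled replicate 2), 20% (WT-labelled replicate 3), 18.4%, 15% and 15.4% (KO-labelled replicates 1, 2 and 3) of all genes were called. The median log2 fold change of the 8 genes was -0.16, beside -0.04 for all tested genes.

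Levels of different genes were compared as CPM per kb of annotated exon. In the WT-labelled libraries Cfp came first (114 ± 42.5 CPM per kb, n = 3), followed by C3 (75.7 ± 39.3), C1qbp (62.2 ± 29.7) and Cd55 (60.4 ± 11.6). The ranges over libraries of each of these and the next one overlapped, so their order is not settled. Cr1l (7.48 ± 0.96) and Clu (7.17 ± 3.12) formed a second, overlapping pair below them, and Cd59a (1.81 ± 0.31) and Cd46 (0.19 ± 0.17) lay lower, each apart from its neighbour. In the KO-labelled libraries C3 (372 ± 75.8) and Cfp (200.3 ± 128) led with overlapping ranges, and C1qbp (57.0 ± 4.73), Cr1l (6.51 ± 0.47), Cd59a (3.76 ± 2.06) and Clu (0.23 ± 0.06) followed without overlap. Cd55 (0.081 ± 0.072) stood seventh and overlapped Cd46 (0.038 ± 0.023). Among the membrane regulators Cd55 was therefore the most abundant per length in the WT-labelled libraries, and Cr1l in the KO-labelled ones.

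The rest of the complement system was examined in 53 further genes. Of these 16 had no read in any library and 16 were tested, of which 3 rose, 4 fell and 9 did not pass, beside the 27.3% of all tested genes. Of the called genes, C5ar1 and Cd55b passed the filter on low counts only through the group where they were high. Cfb and C3ar1 would not have passed through their low group alone. These counts are therefore not read against the 27.3%. The median log2 fold change of the 16 was -0.45, against -0.04 for all tested genes. Terminal components had few or no reads: C6, C7, C8a, C8b and C9 had none, C8g was at 2.73 ± 1.38 and 1.55 ± 0.48 CPM (n = 3; edgeR adjusted p = 0.26), and Hc, the mouse gene of C5, had 0 and 14 reads in the WT-labelled and KO-labelled libraries. The fluid-phase regulators Cfi and C4bp had none either.

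On the alternative route, Cfb rose. Cfb encodes factor B, the protease precursor that joins C3b in the convertase, and had 0.04, 1.09 and 1.09 CPM under the WT label and 32.4, 27.4 and 26.9 CPM under the KO label. No WT-labelled library came near the KO-labelled ones, and the log2 fold change was 5.32 (SE 0.72; edgeR adjusted p = 0.0022), or 4.72 without WT-labelled replicate 1. With 1, 19 and 22 reads, the WT-labelled libraries alone would not have carried Cfb past the filter on low counts. Being tested therefore favoured a rise. Cd55b, the copy of Cd55 that lies beside it, fell from 0.54, 0.52 and 1.39 CPM to 0 reads (edgeR adjusted p = 0.015). The fall was at least 5.52-fold against a floor of 3 counts per library. Only its WT-labelled libraries, with 13, 9 and 28 reads, carried Cd55b past the filter on low counts. Being tested therefore nearly fixed the direction of its call, also where Cd55b is counted among called genes or neighbours. With a replicate block its adjusted p was 0.074, the highest over its alternatives, and its fitted log2 fold change of -7.08 was -6.47 without WT-labelled replicate 3. Of its 31-base words 31.8% also occur in Cd55, so its reads may in part stem from Cd55.

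On the classical and lectin routes, 3 of 19 genes were tested. Colec12, a scavenger receptor of the collectin family, fell from 52.2 ± 28.7 to 2.94 ± 2.33 CPM (n = 3; log2 fold change -4.13, SE 0.70; edgeR adjusted p = 0.0057), with -5.01 without KO-labelled replicate 1. C1ra, a C1 protease gene, was at 2.36 ± 0.94 and 1.83 ± 1.18 CPM (n = 3; edgeR adjusted p = 0.69), and C4a at 0.56 ± 0.21 and 0.58 ± 0.24 CPM (0.96). The C1q subunit genes, macrophage products that did not pass the filter on low counts and are named after their values were seen, had most of their reads in WT-labelled replicates 2 and 3. C1qb had 0.21, 8.15 and 5.56 CPM under the WT label and 2 reads in the KO-labelled libraries together, and C1qc had 147 reads against 1. The C1s protease genes, also untested, had more reads under the KO label, with 2 and 37 reads for C1s1 and 1 and 31 reads for C1s2.

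Among receptors for complement fragments, 9 of 11 genes were tested, of which 2 rose and 1 fell, beside 27.3% of all tested genes. Itgb2, the β2 integrin subunit shared by complement receptors 3 and 4, rose from 97.5, 202 and 199 CPM to 1077, 769 and 724 CPM (log2 fold change 2.37, SE 0.33; edgeR adjusted p = 0.0024). Its α partners did not pass: Itgam was at 369 ± 208 and 543 ± 104 CPM (n = 3; edgeR adjusted p = 0.42), and Itgax at 13.8 ± 10.7 and 2.99 ± 1.65 CPM (adjusted p = 0.11). Lrp1, a large endocytic receptor, was at 4.55, 62.8 and 61.2 CPM under the WT label and 217, 90.5 and 98.8 CPM under the KO label (edgeR adjusted p = 0.20), and Cd93 (1135 ± 80.8 and 781 ± 145 CPM, n = 3; adjusted p = 0.073) and Calr (3050 ± 738 and 1890 ± 112 CPM; 0.060), both linked to C1q binding, did not pass. Over 18 alternatives Cd93 and Calr were each called lower in 5, among them DESeq2 (DESeq2 adjusted p = 0.022 and 0.0050). Itgax was called lower in 3 of its 17, among them DESeq2 (DESeq2 adjusted p = 0.015). Lrp1 was called higher in 1, replicates 2 and 3 alone. C3ar1 and C5ar1, the genes of anaphylatoxin receptors, were called in opposite directions. C5ar1 passed the filter on low counts only through its KO-labelled libraries, which nearly fixes its direction. The KO-labelled libraries of C3ar1, with 7, 11 and 9 reads, would not have carried it past alone, which favours a fall. The receptor counts are therefore not read against the 27.3%. C3ar1, the receptor for C3a, fell from 4.26, 20.7 and 17.4 CPM to 0.32, 0.48 and 0.54 CPM (log2 fold change -4.99, SE 0.67; edgeR adjusted p = 0.0022). C5ar1, the receptor for C5a, rose from 7 to 124 reads over the 3 libraries of a group (0.13 ± 0.19 to 2.03 ± 0.86 CPM, n = 3; log2 fold change 4.02, SE 0.98; edgeR adjusted p = 0.022). The log2 fold change of C5ar1 was 3.38 when WT-labelled replicate 1 was left out and 6.13 when WT-labelled replicate 2 was, which holds most of the WT-labelled reads, and its highest adjusted p over the alternatives was 0.086, reached when WT-labelled replicate 3 or KO-labelled replicate 2 was omitted, with 0.084 for KO-labelled replicate 3.

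Counts for these 53 genes depended on WT-labelled replicate 1. Without it 3 rose and 11 fell, where 42.8% of all genes were called, and in replicates 2 and 3 alone 4 rose and 12 fell, where 52.9% were.

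**Figure D3:**
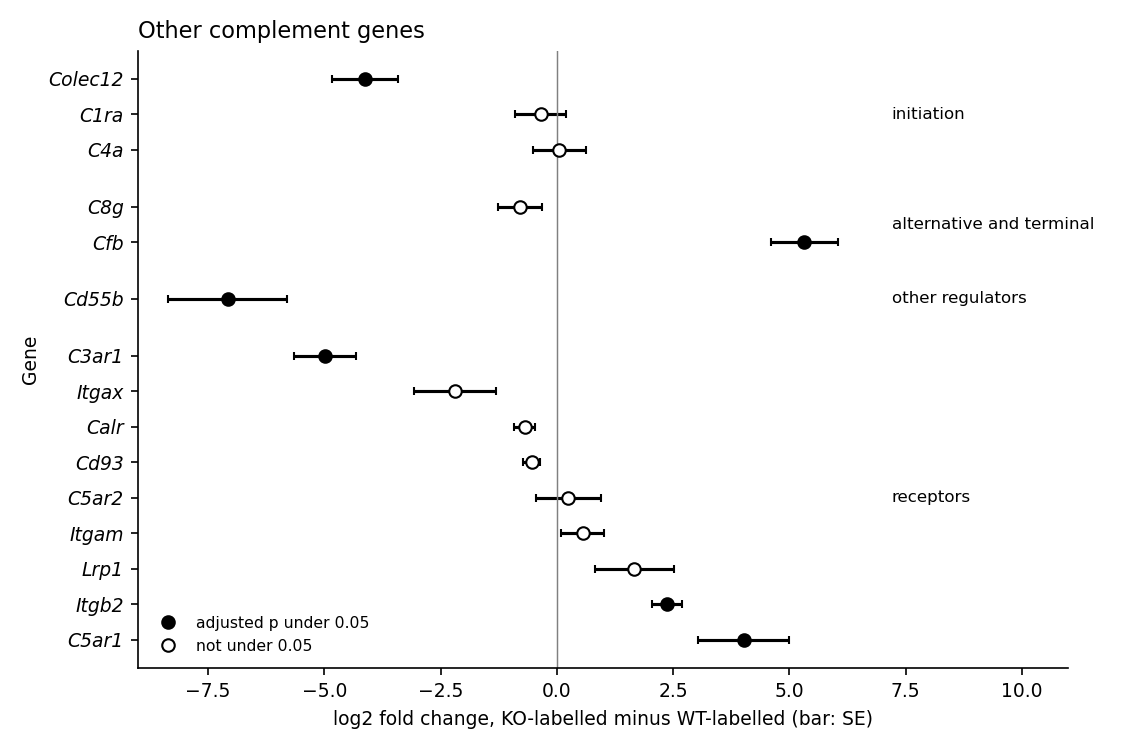
Log2 fold change, KO-labelled minus WT-labelled, of 15 tested complement genes outside the set of 9, with bars of 1 SE, grouped by role; filled circles passed an edgeR adjusted p under 0.05. Cfb, Itgb2 and C5ar1 lie to the right of 0 and Colec12, Cd55b and C3ar1 to the left.

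CD55 and CD59 are held on the cell surface by a glycosylphosphatidylinositol (GPI) anchor, so the genes that build this anchor were examined. All 28 were in the table, and of 27 tested 1 rose, 6 fell and 20 did not pass, beside 27.3% called among all tested genes. The median log2 fold change was -0.09. Piga, the catalytic subunit of the first step, fell from 60.4 ± 6.93 to 27.4 ± 7.5 CPM (n = 3; edgeR adjusted p = 0.010). Dpm1, which makes the mannose donor of the anchor, fell from 78.7 ± 3.64 to 39.7 ± 3.73 CPM (edgeR adjusted p = 0.0014), and Pign, an ethanolamine phosphate transferase, from 91.4 ± 0.91 to 59.5 ± 5.36 CPM (0.0083). The log2 fold changes of the 6 genes that fell were -1.14 to -0.61, far smaller than that of Cd55, and every tested gene had a group mean of at least 3.95 CPM under both labels. Pgap3, which remodels the lipid of the anchor, rose from 3.95 ± 0.78 to 8.44 ± 0.36 CPM (edgeR adjusted p = 0.014). Its adjusted p was 0.054 with a replicate block, 0.075 when KO-labelled replicate 2 was omitted, its highest over the alternatives, and 0.060 when KO-labelled replicate 3 was. Piga is X-linked, and the part of the sex-linked differences in its fall was not tested. The number that fell was 3 without KO-labelled replicate 1, 2 or 3 (18.4%, 15% and 15.4% of all genes called), and the number that rose was 0 when KO-labelled replicate 2 or 3 was omitted and 3 when WT-labelled replicate 1 was. In replicates 2 and 3 alone 2 rose and 8 fell.

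Genes of other GPI-anchored surface proteins were called in both directions, at a share near that of all genes. Of 29 listed genes 28 were in the table and 18 were tested, of which 3 rose, 2 fell and 13 did not pass, beside 27.3% of all tested genes, with a median log2 fold change of -0.36. Thy1, a surface glycoprotein of early hematopoietic and T cells, fell from 238, 546 and 597 CPM to 6.26, 5.24 and 4.89 CPM (log2 fold change -6.39, SE 0.42; edgeR adjusted p = 1.15e-04). In contrast Cd14, the lipopolysaccharide co-receptor, rose from 25.0 ± 14.0 to 361 ± 137 CPM (n = 3; edgeR adjusted p = 0.0024), Plaur, the urokinase receptor, from 47.5 ± 16.3 to 178 ± 58.8 CPM (0.0062) and Nt5e, the ectonucleotidase CD73, from 2.13 ± 0.73 to 24.9 ± 2.42 CPM (2.25e-04). The number that fell was 4 when WT-labelled replicate 1 was left out and 1 when the omitted library was WT-labelled replicate 2, KO-labelled replicate 2 or KO-labelled replicate 3, and the number that rose stayed at 3 in each of these. In replicates 2 and 3 alone 3 rose and 7 fell.

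**Figure D4:**
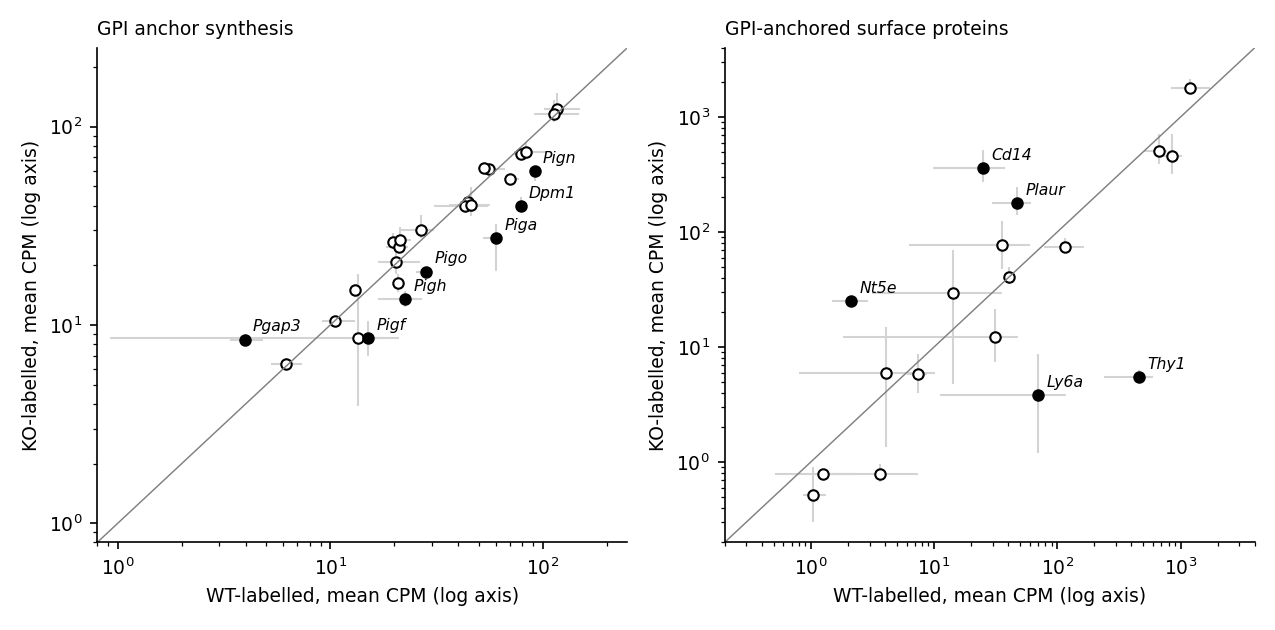
Mean TMM-scaled CPM in the KO-labelled against the WT-labelled libraries (log axes) for tested genes of GPI anchor synthesis (left) and of GPI-anchored surface proteins (right); grey bars span the 3 libraries of a group, the line marks equal levels and filled circles passed an edgeR adjusted p under 0.05. Synthesis genes lie near the line, while Thy1 and Ly6a lie far below it and Cd14, Plaur and Nt5e above it.

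Cd55, Cd46 and Cr1l lie next to related genes on chromosome 1, and genes within 500 kb of each of the 9 were compared. Of 158 counted neighbours 86 were tested, of which 9 rose and 8 fell, beside 27.3% of all tested genes, and their median log2 fold change was -0.08. Near Cd55, 14 neighbours were in the table, 8 had no reads and 3 were tested. Cd55b, 16.0 kb away, fell as given above, whereas Pfkfb2 (34.9 and 29.8 CPM; edgeR adjusted p = 0.50) and Yod1 (5.82 and 5.23 CPM; 0.74), which are 226 and 255 kb away, did not pass. Cd46 and Cr1l lie side by side on the same chromosome, with Cd34 75.5 kb from Cd46. Cd34, the gene of a sialomucin of early hematopoietic cells, fell from 613 ± 17.5 to 1.63 ± 0.42 CPM (n = 3; log2 fold change -8.55, SE 0.26; edgeR adjusted p = 1.4e-05), while Cr1l, 136 kb from Cd34, was at 77.4 ± 9.97 and 67.4 ± 4.89 CPM. Cr2, a receptor gene of B cells on the other side of Cr1l, had no reads.

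Neighbours of the other genes are given beside the 27.3% called and the 47.6% without overlap among all tested genes. Of 7 tested neighbours of Clu, 5 had groups that did not overlap, their median log2 fold change was -0.44, and the lowest edgeR adjusted p was 0.055 (Esco2). Of 20 tested neighbours of C3, 2 passed, Vmac and Rfx2, and both fell. Adgre1, which encodes the macrophage antigen F4/80 and lies 131 kb from C3, was at 9.39, 77.8 and 72.1 CPM under the WT label and 529, 189 and 187 CPM under the KO label but did not pass (edgeR adjusted p = 0.058). Serping1, itself without reads, had 3 neighbours that rose and 2 that fell of 15 tested. These included Tfpi, the inhibitor of the tissue factor pathway of coagulation, which rose from 9 to 2011 reads over the 3 libraries of a group (0.15 ± 0.07 to 32.6 ± 5.34 CPM, n = 3; log2 fold change 7.73, SE 0.32; edgeR adjusted p = 3.0e-05), and P2rx3, which rose from 7.27 ± 4.82 to 167 ± 27.7 CPM (edgeR adjusted p = 0.0024). Near Cfp, Timp1, an inhibitor of matrix proteases, fell from 8.46 ± 7.40 to 0.14 ± 0.10 CPM (n = 3; edgeR adjusted p = 0.013) and Usp11 rose from 11.5 to 26.4 CPM (0.0060). Tfpi passed the filter on low counts only through its KO-labelled libraries and Timp1 only through its WT-labelled ones. This nearly fixes the directions of their calls, also where they are counted among called neighbours. Timp1 did not pass with limma-voom (adjusted p = 0.19, the highest over its alternatives), nor without KO-labelled replicate 1 (0.066) or 2 (0.063), and its log2 fold change of -5.94 was -5.20 without WT-labelled replicate 2. Calcrl, a receptor gene 340 kb from Serping1, fell from 65.6 ± 3.73 to 33.5 ± 1.89 CPM (edgeR adjusted p = 0.0013), and Slc43a3 rose from 45.4 ± 5.88 to 86.2 ± 13.2 CPM (0.0065). Pfn1, Kif1c, Hipk3, Ctnnd1, Rabep1 and Vmac were also called, with log2 fold changes of at most 1.43 in size, and each lost its call without at least 1 of the KO-labelled replicates. With WT-labelled replicate 1 left out 20 neighbours rose and 23 fell, with KO-labelled replicate 2 left out 7 and 5, with KO-labelled replicate 3 left out 8 and 4, and in replicates 2 and 3 alone 21 and 28.

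**Figure D5:**
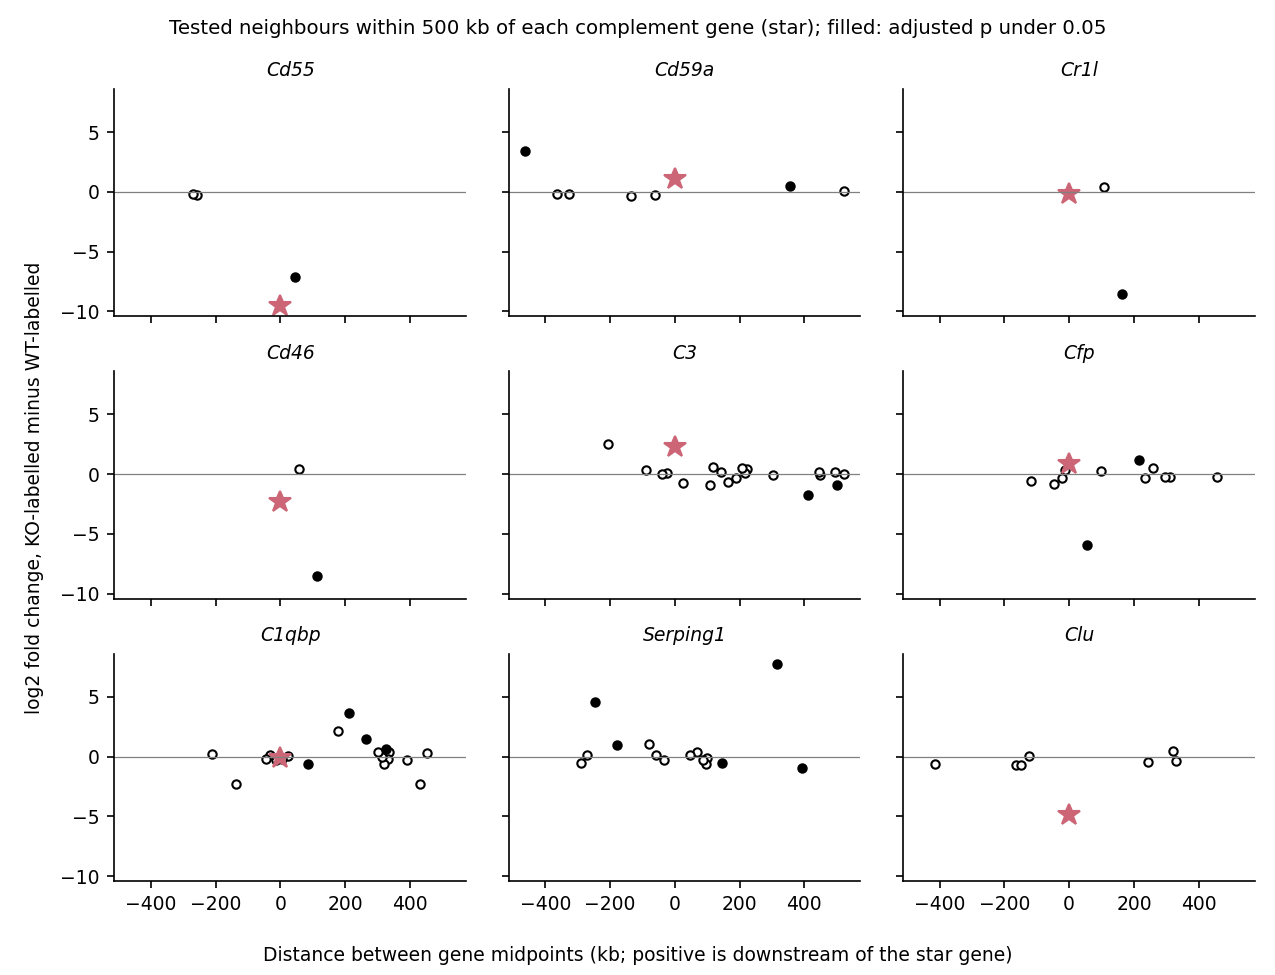
Log2 fold change, KO-labelled minus WT-labelled, of tested genes within 500 kb of each of the 9 complement genes, against the distance between gene midpoints in kb; the star is the complement gene itself (none for Serping1, which had no reads) and filled circles passed an edgeR adjusted p under 0.05. The points near Clu have a median of -0.44 while Clu is at -4.92, and Cd34 at -8.55 is the low point near Cd46 and Cr1l.

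Over the 6 libraries, the genes whose log2 CPM followed Cd55 most closely, of 9974 compared, were Lrch3, Pign, Erg, Gtf2ird1 and Stk24, with Pearson's r from 0.9976 to 0.9990. These correlations describe 6 points that fall into the 2 groups and share their libraries and depth. Of the 5, Erg, a transcription factor of hematopoietic stem cells, shared the size of the change as well as its pattern, with 90.5, 77.4 and 83.4 CPM under the WT label and 0, 0.30 and 0.30 CPM under the KO label. Erg, like Cd55, had no read in KO-labelled replicate 1 and a few in replicates 2 and 3. The other 4 differed by at most 2.33-fold between group means, as Stk24 did at 252 ± 13.2 and 108 ± 26.9 CPM (n = 3).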

How the data were processed

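RNA sequencing libraries came from 3 WT-labelled and 3 KO-labelled samples of MLL-AF9 cells. The authors deposited a raw count per gene and library. The submitters' processing notes name FastQC 0.11.7, HISAT2 2.0.5, featureCounts 1.5.2 and mm10, and neither the annotation nor the strand setting is given in the sources used here. Per the labels' protocols the kit was a stranded TruSeq mRNA kit.

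The counts entered edgeR 4.0.16 (R 4.3.3) with TMM scaling, its default filter on low counts, a robust quasi-likelihood fit and Benjamini-Hochberg adjustment over 12126 genes at 0.05. Tested on simulated data of 11996 genes, this design recovered 41 of 99 genes with 2-fold and 87 of 98 with 4-fold changes. Of its 142 calls 14 were false, a share above the threshold of 0.05. The simulation changed a far smaller share of genes than the 27.3% called here, so its rates may not hold for these data. The floor is 3 counts in a library, and counting intervals are exact at 95%. Positions, exon lengths and shared 31-base words came from GENCODE M21. Cd55b and Adgre1 were found under the symbols Daf2 and Emr1.

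The genes and lists were chosen with earlier results of these data known. Named were the 9 genes, Cd55b, Cd59b, Tnfaip3, up to 4 called genes per list in order of p, called neighbours with at least 5 CPM in a group, and the 5 genes most like Cd55 by log2 CPM (prior count 0.5). Other complement and marker genes and Pfkfb2, Yod1, Esco2, Rfx2, Adgre1, Ly6a and Cr2 were named after their values were seen. Some genes that enter the counts are not reported here by name. Alternatives were other scalings and filters, DESeq2 1.42.0, limma-voom (limma 3.58.1), a non-robust fit, a replicate block or replicate 1 term, subsets of replicates, KO-labelled replicates 2 and 3 summed, and other distances.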

Additional observations from a re-analysis of the deposited data

How the results depend on the processing

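Over the 18 alternatives, 137 of 142 values of the complement genes kept direction and side of the threshold; Cfp, not called, turned to -0.14 in replicates 2 and 3, Cd46 became called in replicates 2 and 3 and without WT-labelled replicate 1, and C1qbp turned to 0.39 and 0.34 there, with -0.34 to 0.34 over single omissions. Cd55 ranged from -10.53 to -8.91, C3 from 1.73 to 2.60 and Clu from -5.23 to -4.71 on the log2 scale. Of 673 values for other named genes 611 kept both, 40 lost and 16 gained a call, and 6 changed sign without a call (4 of C4a, 1 of C5ar2 and 1 of Itgam). The causes were not tested.

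Deviations from group means correlated over genes at 0.030, -0.019 and 0.055 for equal replicate numbers, all under 0.1. WT-labelled replicates 1 and 3 correlated best with their own number, and replicate 2 with KO-labelled replicate 1. Single genes went both ways. Gapdh was at 2645, 181 and 167 CPM in WT-labelled replicates 1, 2 and 3 and at 2716, 254 and 248 CPM in the KO-labelled ones. Cfp was lowest in replicate 1 under the WT label and highest in it under the KO label. A correlation over many genes can miss a difference in a few, so it does not decide whether libraries were paired. A batch shared by replicate 1 of both groups was not tested. With a replicate block 989 genes were called higher and 1034 lower, of GPI synthesis genes 0 and 3, of GPI-anchored surface genes 1 lower and of neighbours 5 lower. In replicates 2 and 3 alone 3149 genes were called higher and 3309 lower, 2 of the 9 complement genes higher, 12 other complement genes lower, 2 GPI synthesis genes higher, 7 surface genes lower, and 21 and 28 neighbours higher and lower. With KO-labelled replicates 2 and 3 summed, 982 and 945 genes, 0 and 3 GPI synthesis genes, 1 surface gene (lower) and 3 neighbours (lower) were called. DESeq2 called 6 and 11 other complement genes higher and lower, 4 surface genes lower and 14 neighbours higher. Without the low-count filter 5 and 7 other complement genes were called, and with the stricter filter of 5 CPM in 3 libraries 1 was lower, as were 5 neighbours. Of surface genes 1 was lower with limma-voom and with a term for replicate 1. Within 250 kb 5 neighbours were higher and 5 lower, and within 1 Mb 19 and 17.

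Leaving out 1 library at a time gave 939 to 2712 genes higher and 916 to 2568 lower. For the 9 complement genes this gave 1 to 2 higher and 2 to 3 lower, for other complement genes 2 to 3 and 4 to 11, for GPI synthesis genes 0 to 3 and 3 to 7, for surface genes 3 higher and 1 to 4 lower, and for neighbours 7 to 20 and 4 to 23. Depth limits Serping1, Cd46, Cd55b and the KO-labelled level of Cd55, which rest on 0 to 84 reads per group.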
